A study of Mus musculus with 5 samples.

Results

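The 38 mouse genes described here encode Wnt ligands (19 genes), Frizzled receptors (10 genes), the co-receptors Lrp5 and Lrp6, the effectors Ctnnb1, Axin1 and Axin2, and the TCF/LEF transcription factors Lef1, Tcf7, Tcf7l1 and Tcf7l2. They were taken as a named list, and all 38 of 38 were found among the 21951 protein-coding genes of GENCODE M21 on mm10. A gene was counted as having a promoter peak when a peak lay within 3 kb of any of its transcription start sites (TSSs), and as having a distal peak when a peak lay farther than 3 kb and within 50 kb. The peaks came from CUT&RUN-seq, in which a nuclease, brought to the protein of interest by an antibody, cuts and frees the surrounding DNA. There were 3 libraries made with a JunB antibody from muscle stem cells (MuSCs) of young mice, 1 JunB library from MuSCs of aged mice and 1 library for H3K27ac, an acetylated histone found at active regulatory DNA. The labels named no transgene or deletion, and no age was given for the H3K27ac library. For young and aged mice the paper describes sorting of MuSCs from hindlimb muscle on surface markers. For its JunB knockout mice and their controls, which carry a Cre and a YFP reporter, it describes sorting on GFP. Which way was used for each library is not given in the labels. The design text speaks of mice given DMSO or MVC, whereas the sample titles name young and aged, and the titles were followed. With 1 aged library and 1 H3K27ac library, no test was made between groups, and the figures for them have no replicate spread.

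Wnt proteins are secreted lipid-modified signals that bind Frizzled receptors together with Lrp5 or Lrp6. In the canonical branch this stops the Axin-containing destruction complex from degrading β-catenin, the product of Ctnnb1, which then acts with TCF/LEF factors on target genes such as Axin2. In non-canonical branches, ligands such as Wnt5a, Wnt11 and Wnt7a act through receptors such as Fzd7 on cell polarity and growth. Both branches are known for roles in muscle regeneration and in the expansion and commitment of MuSCs. JunB is a subunit of AP-1, a dimeric factor whose best known recognition sequence is TGACTCA or TGAGTCA.

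The JunB lists differed in ways that bear on every count below. Young replicates 1, 2 and 3 held 9534, 4884 and 3863 peaks, the aged list 14123 and the H3K27ac list 39865. The lowest −log10 p in a list was 3.01 for the aged library and young replicate 1, but 5.33 for young replicate 2 and 5.22 for young replicate 3. The peak names inside the list of young replicate 1 carry the letters gfp, which no label of that library explains, and the names in the other lists do not. Whether those cells differed from the other young cells is not known from the sources used here. The young means, the aged to young promoter ratios and the counts of distal peaks seen at one age only are also given without this library. Other values that rest on it are not. Read counts are not part of the lists, and the depth at each peak is therefore unknown. Sequence masked as repeats in the assembly made up at least 50% of the bases in 21.2% of the peaks of young replicate 1, in 14.7% of those of the aged library, and in 4.62% and 4.11% of those of young replicates 2 and 3. As a check of the cell label, 6 of 10 MuSC marker genes had an H3K27ac promoter peak, a share near the 49.8% of all protein-coding genes, among them Myod1, Cdh15 and Vcam1, while Pax7, Myf5, Calcr and Cxcr4 had none. The same count was 3 of 6 for endothelial markers, 0 of 6 for haematopoietic markers, 2 of 6 for fibro-adipogenic markers, 2 of 5 for smooth muscle and pericyte markers, 2 of 3 for Schwann cell markers and 1 of 4 for myofibre markers. In the aged JunB library, 23.9% of all protein-coding genes carried a promoter peak. So did 5 of 10 MuSC markers, against 2, 3 and 1 of 10 in young replicates 1, 2 and 3. Of the 6 fibro-adipogenic markers, Pdgfra, Col1a1 and Cd34 had one there and Ly6a, Dcn and Lum did not, and 0 of 6 did in each young library. The aged count was 1 of 6 for endothelial, 1 of 6 for haematopoietic, 1 of 5 for smooth muscle and pericyte, 1 of 3 for Schwann cell and 1 of 4 for myofibre markers. The part of other cells in the Wnt gene peaks was not tested.

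JunB promoter peaks at Wnt genes were few. They were present at 2, 1 and 0 of the 38 genes in young replicates 1, 2 and 3, that is 5.26%, 2.63% and 0 of them. For the count of 0, a floor of 3 counts of 38 is 7.89%, and the upper end of the exact 95% interval was 9.25%. Among all protein-coding genes the shares were 11.1%, 7.79% and 5.95%. In the aged library 6 of the 38 genes (15.8%, exact 95% binomial interval 6.02 to 31.3%) had a JunB promoter peak, against 23.9% of all protein-coding genes. The young mean was 2.63% ± 2.63 (SD, n = 3) for the Wnt genes and 8.28% ± 2.61 for all protein-coding genes. The aged share was above each young share in both sets, 6 times the young mean for the Wnt genes and 2.89 times for all genes. The first ratio stands on a young mean of 1 gene, and without young replicate 1 the ratios were 12 and 3.48. When each JunB list was reduced to its 3863 strongest peaks, the aged count fell to 0 of 38 and the young counts were 1, 0 and 0, while 8.83% of all genes still had an aged promoter peak. The aged promoter peak of Fzd7 ranked 3887 and so fell just below that cut. The intervals cover counting error only, and in these bulk libraries binding in more cells and stronger binding per cell cannot be told apart.

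Distal JunB peaks were more common at these genes than promoter peaks. They were found for 15, 6 and 5 of the 38 genes in young replicates 1, 2 and 3, which is 39.5%, 15.8% and 13.2%, against 35.3%, 22.9% and 19.7% of all protein-coding genes. In the aged library 14 genes had one (36.8%, interval 21.8 to 54.0%), against 50.6% of all genes. The young mean was 22.8% ± 14.5 (SD, n = 3). For the Wnt genes the aged share lay inside the range of the young libraries, but for all protein-coding genes it lay above all 3. That difference depended on the thresholds of the lists. When only JunB peaks with a −log10 p of 5.33 or more were kept, the Wnt gene counts were 9, 6 and 5 (young) and 12 (aged). With a −log10 q of 2 or more they were 9, 6 and 5 (young) and 13 (aged). The aged count was above each young count in both settings. The young mean rests on replicate 1, without which it fell from 8.67 genes to 5.50 (14.5%, against 21.3% of all genes). With the 3863 strongest peaks of each JunB list, the aged count fell to 4 (10.5%, against 21.9% of all genes), below the 5 genes of each young library. With a limit of 100 kb in place of 50 kb the aged share of the Wnt genes turned from below to above that of all genes, 78.9% against 69.9%, and the young mean likewise, 45.6% against 41.7%. At 50 kb without peaks at another gene's promoter, the aged share was 28.9% against 29.9% and the young mean 21.9% against 15.4%.

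The H3K27ac library gave another order. A promoter peak of the mark was present at 14 of the 38 genes (36.8%, interval 21.8 to 54.0%), against 49.8% of all protein-coding genes, and a distal peak at 31 (81.6%, interval 65.7 to 92.3%), against 70.9%. The promoter share lay below and the distal share above that of all protein-coding genes, which fell inside both intervals. The Wnt genes had a median of 1 other protein-coding gene with a TSS within 50 kb, against 2 for all genes. When each peak was given only to its nearest protein-coding gene, 57.9% of the Wnt genes and 29.8% of all genes kept a distal H3K27ac peak, and 23.7% and 16.7% an aged distal JunB peak. The plot of shares by library sets these values beside a fixed list of 67 other pathway genes.

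**Figure D1:**
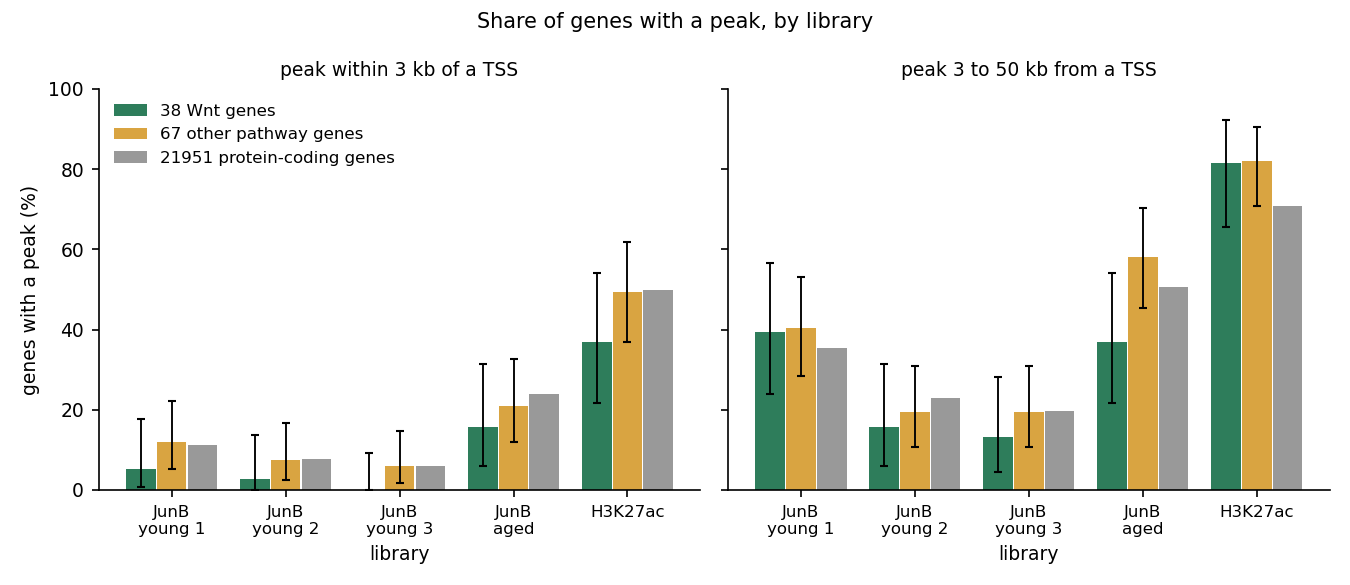
Share of genes with a peak within 3 kb of a TSS (left) and 3 to 50 kb from a TSS (right), in percent, for each of the 5 libraries. Green bars are the 38 Wnt genes, yellow bars the 67 other pathway genes and grey bars all 21951 protein-coding genes, and lines on the first 2 are exact 95% binomial intervals. For JunB promoter peaks the green bar is the lowest of the 3 in every library.

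JunB promoter peaks were next read against the H3K27ac mark. Of the 6 Wnt genes with an aged JunB promoter peak, 5 had an H3K27ac promoter peak (83.3%), against 88.4% of all protein-coding genes with an aged JunB promoter peak. Of the 14 Wnt genes with an H3K27ac promoter peak, 2, 1 and 0 had a JunB promoter peak in the young libraries and 5 in aged MuSCs (35.7%, interval 12.8 to 64.9%). Among the 10940 protein-coding genes with an H3K27ac promoter peak the JunB shares were 20%, 14.5% and 11.0% in the young libraries and 42.4% in aged MuSCs. Of the 24 Wnt genes without the mark at a promoter, 1 had a JunB promoter peak in the aged library (4.17%, against 5.55% of all protein-coding genes without the mark) and none in the young libraries. The 14 marked genes were Wnt4 and Wnt5b, Fzd1, Fzd2, Fzd4, Fzd7, Fzd8 and Fzd10, Lrp6, all 3 effectors, and Tcf7l1 and Tcf7l2. That is 2 of 19 ligands, 6 of 10 receptors, 1 of 2 co-receptors, 3 of 3 effectors and 2 of 4 TCF/LEF factors. Summed over its promoter peaks, the mark covered a median of 884 bp at these 14 genes and 1083 bp at all marked genes. Lrp6 had the widest coverage of the 14, 3567 bp in 5 peaks within 3 kb of 4 of its 6 annotated TSSs, and Wnt5b had the strongest single peak, at a fold enrichment of 6.37 and a −log10 p of 27.8. Fold enrichment here is the pileup at the peak summit over the local background of the same library.

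**Figure D2:**
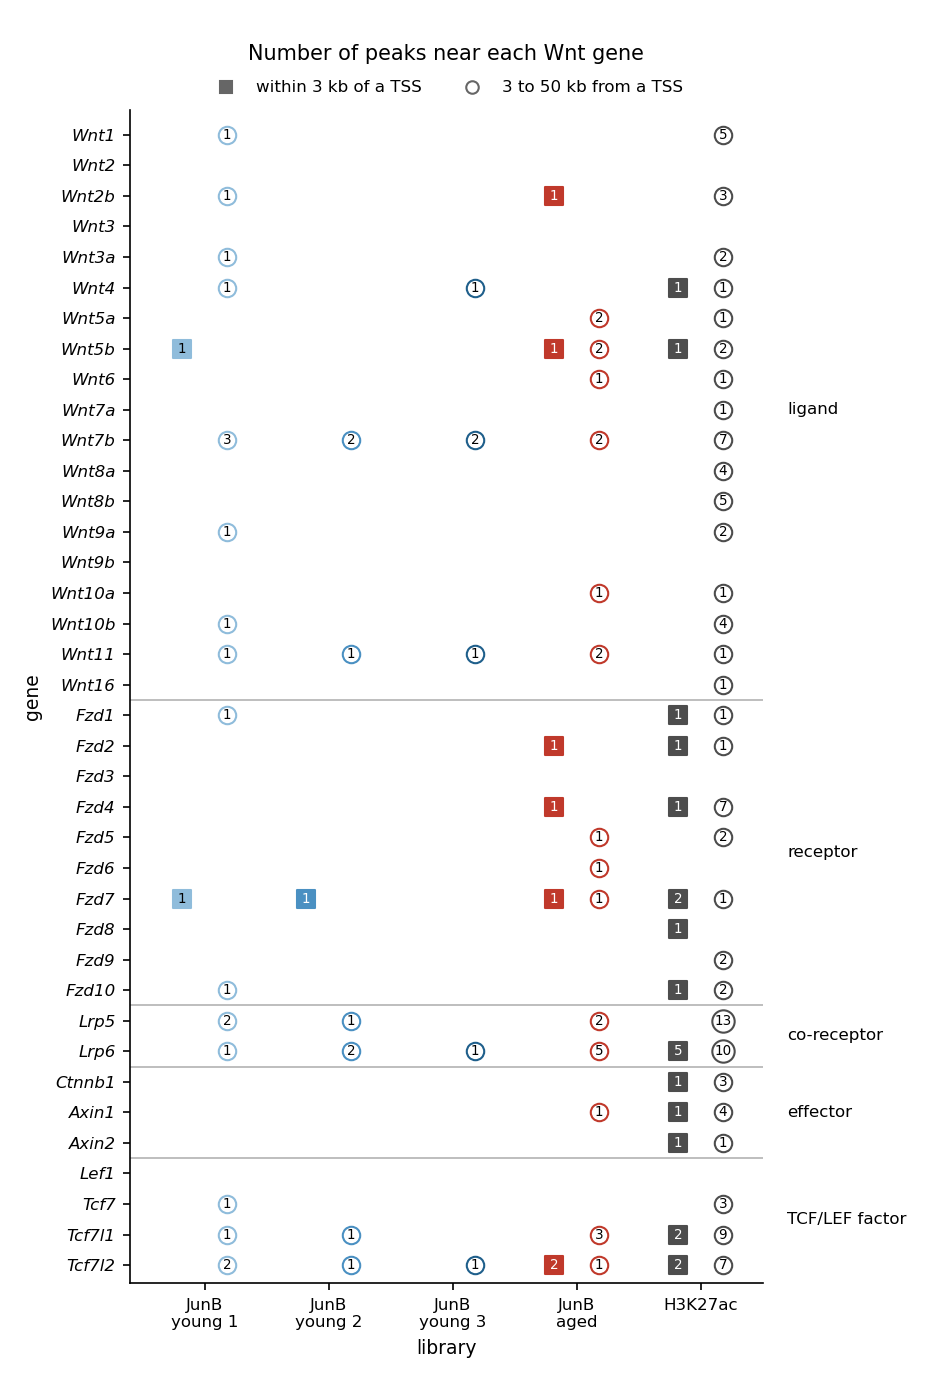
Number of peaks near each of the 38 Wnt genes (rows, grouped by role) in each of the 5 libraries (columns). Filled squares hold the number of peaks within 3 kb of a TSS and open circles the number at 3 to 50 kb, and an empty cell means no peak. The left JunB columns are nearly free of squares, and the rows of Wnt7b, Wnt11, Lrp6 and Tcf7l2 hold JunB circles in all 4 JunB columns.

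Sequences under the Wnt gene loci found in all 4 JunB libraries are shown to let the bound DNA be read, one locus a gene. Each is 299 bases of the mm10 plus strand centred on the aged summit, read from the GRCm38.p6 assembly, and capitals mark an exact TGACTCA or TGAGTCA (AP-1) or TGACGTCA (the related cyclic AMP response element, CRE). They are at chr7:98804914-98805212 for Wnt11, chr15:85599352-85599650 for the upstream Wnt7b locus, chr6:134521952-134522250 for Lrp6 and chr19:55875416-55875714 for Tcf7l2. The Lrp6 window is a tandem repeat with a unit of 38 bp.
Wnt11: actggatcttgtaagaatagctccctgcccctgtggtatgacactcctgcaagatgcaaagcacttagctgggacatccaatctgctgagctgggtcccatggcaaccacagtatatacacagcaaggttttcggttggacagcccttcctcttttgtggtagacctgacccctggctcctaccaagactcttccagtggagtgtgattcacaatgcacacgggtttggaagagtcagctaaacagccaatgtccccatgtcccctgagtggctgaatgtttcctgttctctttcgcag
Wnt7b: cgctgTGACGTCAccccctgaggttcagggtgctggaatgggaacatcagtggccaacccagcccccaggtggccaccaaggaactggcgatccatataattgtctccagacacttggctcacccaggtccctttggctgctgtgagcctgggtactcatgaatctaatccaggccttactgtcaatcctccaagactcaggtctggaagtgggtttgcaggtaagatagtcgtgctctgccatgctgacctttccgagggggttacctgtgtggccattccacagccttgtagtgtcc
Lrp6: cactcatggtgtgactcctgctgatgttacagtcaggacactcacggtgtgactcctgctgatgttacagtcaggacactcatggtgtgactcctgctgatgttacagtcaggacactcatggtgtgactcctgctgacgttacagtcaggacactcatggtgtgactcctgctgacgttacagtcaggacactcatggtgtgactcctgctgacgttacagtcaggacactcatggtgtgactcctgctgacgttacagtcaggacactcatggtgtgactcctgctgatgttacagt
Tcf7l2: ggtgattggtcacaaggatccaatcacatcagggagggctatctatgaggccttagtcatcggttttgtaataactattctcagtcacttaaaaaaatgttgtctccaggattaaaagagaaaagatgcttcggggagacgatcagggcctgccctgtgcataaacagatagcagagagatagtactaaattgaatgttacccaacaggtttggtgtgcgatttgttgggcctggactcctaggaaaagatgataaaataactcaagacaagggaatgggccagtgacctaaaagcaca
The capitals show a CRE sequence near the edge of the Wnt7b window, and none of the 4 windows holds an exact AP-1 sequence.

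The loci found in 2 or 3 libraries are shown in the same way, since they include both Wnt gene promoters with a JunB peak in more than 1 library. They are at chr1:59481716-59482014 for the Fzd7 promoter, chr6:119467461-119467759 for the internal Wnt5b promoter, chr19:3575870-3576168 for the Lrp5-linked peak beside Ppp6r3 and chr6:72659909-72660207 for the Tcf7l1 intron.
Fzd7: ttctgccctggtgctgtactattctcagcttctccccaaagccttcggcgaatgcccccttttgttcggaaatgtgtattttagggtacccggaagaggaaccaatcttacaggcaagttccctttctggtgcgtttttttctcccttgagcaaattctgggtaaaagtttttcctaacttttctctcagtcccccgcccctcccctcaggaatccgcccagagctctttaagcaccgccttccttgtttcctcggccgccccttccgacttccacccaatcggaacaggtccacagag
Wnt5b: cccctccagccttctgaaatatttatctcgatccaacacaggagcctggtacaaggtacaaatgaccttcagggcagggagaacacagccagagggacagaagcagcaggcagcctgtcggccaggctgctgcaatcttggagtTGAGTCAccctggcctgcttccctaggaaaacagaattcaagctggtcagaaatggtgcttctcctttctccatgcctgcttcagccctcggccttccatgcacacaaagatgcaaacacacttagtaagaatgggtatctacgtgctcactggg
Lrp5: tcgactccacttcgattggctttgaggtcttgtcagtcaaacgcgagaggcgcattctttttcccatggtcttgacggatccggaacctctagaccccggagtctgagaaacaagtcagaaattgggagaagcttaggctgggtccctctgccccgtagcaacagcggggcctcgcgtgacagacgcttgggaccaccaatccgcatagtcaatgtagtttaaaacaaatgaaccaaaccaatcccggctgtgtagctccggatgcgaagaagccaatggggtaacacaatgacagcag
Tcf7l1: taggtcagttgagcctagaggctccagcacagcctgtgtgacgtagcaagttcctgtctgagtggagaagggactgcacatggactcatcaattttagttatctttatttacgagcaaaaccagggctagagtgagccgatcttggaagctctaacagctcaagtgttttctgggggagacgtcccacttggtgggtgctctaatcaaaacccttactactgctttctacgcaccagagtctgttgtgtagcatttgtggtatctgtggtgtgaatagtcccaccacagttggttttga
A TGAGTCA stands at the summit of the aged Wnt5b peak, and the other 3 windows hold neither sequence. At Tcf7l1 a TGAGTCA starts 11 bases past the end of the window, 129 bp from the summit of young replicate 1.

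Among the ligands, JunB promoter peaks were found at Wnt5b and Wnt2b. Wnt5b, which signals mainly through non-canonical branches, had one in young replicate 1 (chr6:119467328-119467623, fold enrichment 6.64, −log10 p 11.5) and in the aged library (chr6:119467525-119467785, fold enrichment 4.49, −log10 p 5.93), and none in young replicates 2 and 3. Both lay in an intron of the longest gene model, 117 and 314 bp from an internal TSS, under an H3K27ac peak. The aged library also held 2 distal peaks of Wnt5b. Wnt2b had its promoter peak only in the aged library, in an intron 2333 bp from a TSS. Its −log10 p of 5.22 lay below the lowest in the list of young replicate 2 (5.33). The Wnt2b peak had a fold enrichment of 4.15 and no H3K27ac overlap. It was the promoter peak farthest from a TSS among the Wnt genes, and the nearest JunB peaks beyond the 3 kb limit lay 4619 bp from a Tcf7l2 TSS in young replicate 1 and 5803 bp from Wnt5a in aged MuSCs.

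Among the 5 loci found in all 4 JunB libraries, 3 were distal peaks of the ligands Wnt11 and Wnt7b. Wnt11, a non-canonical ligand, had an upstream peak in all 4 JunB libraries, with fold enrichments of 11.3, 10.8 and 9.94 across young replicates 1, 2 and 3 and of 10.3 with the aged cells. Its −log10 p was 31.0, 27.4 and 19.2 in the young libraries and 24.2 in aged MuSCs, and it ranked 508 among the 14123 aged peaks. It did not overlap an H3K27ac peak, and the nearest protein-coding TSS was that of Wnt11, 29811 bp from the aged peak. Wnt7b, a ligand active in both branches, had 2 such loci. The first lay upstream, 16529 bp from a TSS in the aged library, with fold enrichments of 10.2, 7.46 and 8.87 in the young libraries and 7.93 in aged MuSCs, and the second lay beyond the 3′ end of the gene, 43208 bp from its nearest TSS in the aged library, with 7.95, 7.74, 9.33 and 5.51 in the same order. Both Wnt7b loci overlapped H3K27ac peaks, and the second was nearer to the protein-coding gene 7530416G11Rik than to Wnt7b.

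Wnt4 and Wnt5a showed the opposite case, peaks that did not recur. Wnt4 had an intronic peak in young replicate 3 (fold enrichment 6.18, −log10 p 8.81, with an AP-1 sequence within 50 bp of its summit) and another peak 46113 bp upstream in young replicate 1 (fold enrichment 3.32, −log10 p 3.96), and none in the aged library. Wnt5a, a non-canonical ligand, had 2 peaks in the aged library alone, at fold enrichments of 3.63 and 4.67 and 5803 and 21601 bp from a TSS, the second under an H3K27ac peak. Wnt1, Wnt2b, Wnt3a, Wnt9a and Wnt10b had a distal peak in young replicate 1 alone, and Wnt6 and Wnt10a in the aged library alone. Neighbouring ligands shared some of these peaks, since 1 peak served both Wnt1 and Wnt10b, another Wnt3a and Wnt9a, and a further one Wnt6 and Wnt10a. Wnt7a, Wnt8a, Wnt8b and Wnt16 had a distal H3K27ac peak and no JunB peak within 50 kb, and Wnt2, Wnt3 and Wnt9b had no peak of any library.

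Among the receptors, Fzd7, a Frizzled known as a Wnt7a receptor in MuSCs, had the promoter peak found in the most libraries. The gene lies at chr1:59482424-59486955 on the plus strand, and its JunB peak ended 522, 459 and 395 bp upstream of the TSS in young replicate 1, young replicate 2 and the aged library. The fold enrichments were 4.98, 5.95 and 5.96 and the −log10 p values 7.46, 10 and 9.67 in that order, and young replicate 3 had no peak there. All 3 peaks overlapped an H3K27ac peak. The aged fold enrichment was close to that of young replicate 2 and above that of young replicate 1, each relative to its own library. No Wnt gene had a JunB promoter peak in all 4 JunB libraries, against 4.40% of all protein-coding genes.

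The promoter peaks of Fzd2 and Fzd4 were confined to the aged list. The Fzd2 peak ended 199 bp upstream of the TSS under an H3K27ac peak, with a fold enrichment of 4.15 and a −log10 p of 5.22. That −log10 p lay below the lowest in the list of young replicate 2 (5.33) and at the lowest of young replicate 3 (5.22). The Fzd4 peak (fold enrichment 4.41, −log10 p 6.27) lay 133 bp upstream of Fzd4 and spanned a TSS of Tmem135, whose exon held the summit, and it did not overlap the H3K27ac peak of that promoter. The remaining receptors had distal JunB peaks in single libraries. Those of Fzd6 (fold enrichment 4.67, all of its bases repeat-masked) and Fzd5 (4.60, at a TSS of Ccnyl1) were in the aged library, and those of Fzd1 and Fzd10 in young replicate 1. Fzd8 and Fzd9 had H3K27ac peaks only, and Fzd3 had no peak of any library within 50 kb.

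Both co-receptors had distal JunB peaks and no JunB promoter peak. Lrp6 had an intronic peak in all 4 JunB libraries, at fold enrichments of 9.31, 9.17 and 11.5 in the young libraries and 7.17 in aged MuSCs, with −log10 p values of 22.4, 23.8, 24.5 and 12.8. The sequence under it is a tandem repeat. Shifted by 38 bp, the 151 bp around the summit matched itself at 99.1% of positions in 3 libraries and at 100% in young replicate 3, and none of these peaks overlapped H3K27ac. A self-match of at least 80% at a shift of 10 to 60 bp was found for 4.26%, 2.35% and 2.92% of the peaks of the young libraries and 1.68% of aged peaks. Among the Wnt gene peaks it was found for 3 of 19, 1 of 9 and 1 of 6 in the young libraries and 1 of 31 in aged MuSCs, the other 2 being the young replicate 1 peaks shared by Wnt1 and Wnt10b (85.2%) and in an intron of Lrp5 (100%). Without this peak, Lrp6 had JunB peaks in young replicate 2 and the aged library alone. Lrp6 had 4 further distal peaks in the aged library, 1 of them also called in young replicate 2 at a fold enrichment of 7.74 against 4.59 in the aged library. Lrp5 had a strong peak 39457 bp from its nearest TSS, with fold enrichments of 9.14, 8.11 and 12.2 in young replicate 1, young replicate 2 and the aged library and none in young replicate 3. That peak lay 96 bp from a TSS of Ppp6r3 in the aged library, and ranked 348 among the 14123 aged peaks. Ppp6r3, a regulatory subunit of a protein phosphatase, was the protein-coding gene nearest to it, and its link to Lrp5 rests on the 50 kb window alone.

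Of the 3 effectors, 1 had a distal JunB peak in the aged library (33.3%, interval 0.840 to 90.6%), against 50.6% of all protein-coding genes. No effector had a JunB peak within 50 kb in a young library. Among all protein-coding genes, 35.4% had no JunB peak within 50 kb in any JunB library. Ctnnb1, which encodes β-catenin, and Axin2, a scaffold of the destruction complex and a common readout of canonical signalling, had no JunB peak within 50 kb in any of the 4 JunB libraries, although both had an H3K27ac promoter peak, at fold enrichments of 3.71 and 3.95. The nearest JunB peaks lay 98186 bp from Ctnnb1 (young replicates 1 and 2) and 67994 bp from Axin2 (aged library). Axin1 had 1 aged peak, 48238 bp upstream at a TSS of Decr2, with a fold enrichment of 3.54 and a −log10 p of 4.13. It was the JunB link nearest to the 50 kb limit on the inside, and the nearest outside was an aged peak 50582 bp from Tcf7.

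The TCF/LEF factors divided. Tcf7l2, which both activates and represses targets, had 2 promoter peaks in the aged library, 387 and 954 bp upstream of a TSS (fold enrichments of 4.59 and 4.17, both under an H3K27ac peak) and none in the young libraries. Its intronic peak was called in all 4 libraries, at fold enrichments of 8.83, 8.17 and 9.14 in the young libraries and 5.11 in aged MuSCs. The medians of all peaks in these libraries were 5.20, 7.74, 8.11 and 4.93 in the same order. It overlapped H3K27ac and lay 17648 bp from the nearest Tcf7l2 TSS in the aged library. Tcf7l1, a repressor of Wnt targets in the absence of β-catenin, had an intronic peak in 3 libraries, with fold enrichments of 5.40 and 5.93 in young replicates 1 and 2 and 4.94 in aged MuSCs, and 2 more distal peaks in the aged library, 1 of them at a TSS of Retsat. Tcf7 had a distal peak in young replicate 1 alone, and Lef1 had no peak of any library within 50 kb.

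**Figure D3:**
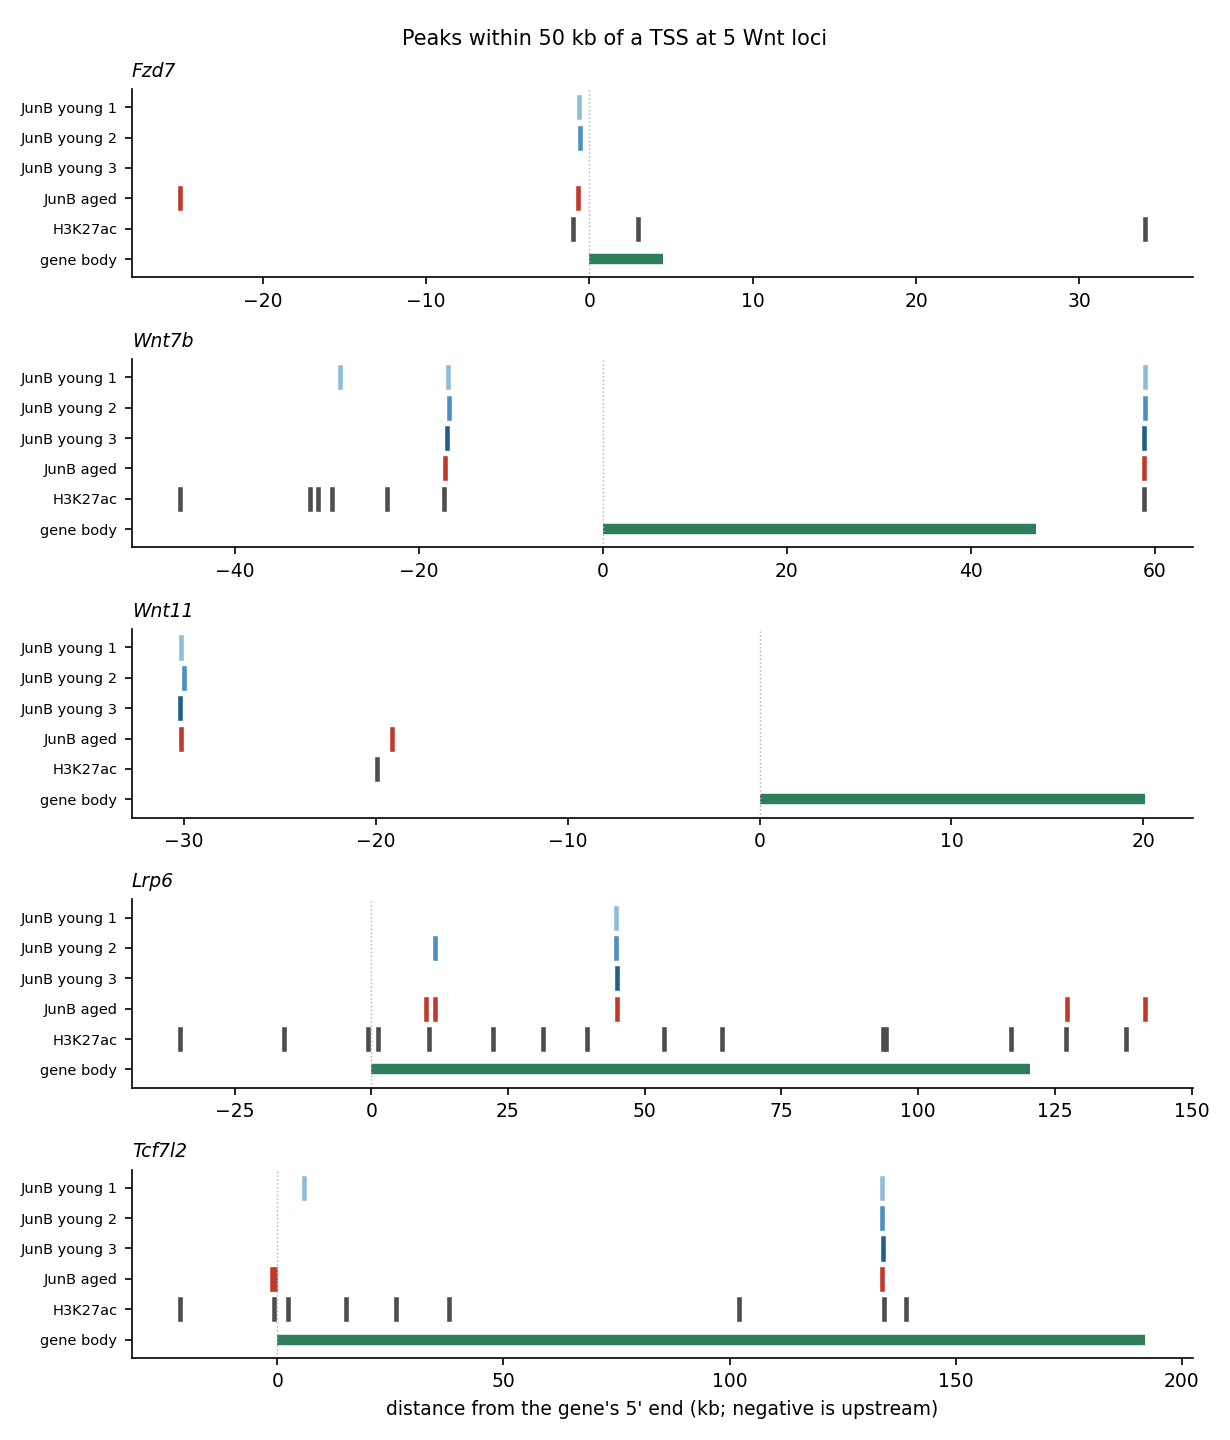
Peaks within 50 kb of a TSS at Fzd7, Wnt7b, Wnt11, Lrp6 and Tcf7l2, drawn at the middle of each peak by distance in kb from the gene's 5′ end, with negative values upstream. Each row is a library and the green bar is the gene. Vertical alignment of all 4 JunB rows shows the loci found in all 4 libraries, of which those at Wnt7b and Tcf7l2 have an H3K27ac mark in the row below them and those at Wnt11 and Lrp6 do not.

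Joined over libraries, the JunB peaks linked to Wnt genes formed 42 loci. Of these, 5 were in all 4 libraries, 3 in 3, 2 in 2 and 32 in a single library, and the single-library loci were 21 from the aged library, 10 from young replicate 1, 1 from young replicate 3 and 0 from young replicate 2. The share of peaks that another JunB library also held was 9 of 19, 9 of 9 and 5 of 6 for young replicates 1, 2 and 3, and 10 of 31 for the aged library. For peaks within 50 kb of any protein-coding gene it was 69.9%, 94.8%, 95.9% and 41.0%. An H3K27ac peak overlapped 17 of the 42 loci, 3 of the 5 in all libraries and 12 of the 32 in 1 library. By library, 5 of 17, 3 of 8, 3 of 6 and 10 of 24 distal Wnt gene peaks overlapped H3K27ac in the young libraries and the aged library, against 51.5%, 62.3%, 61.7% and 51.8% of distal peaks of all protein-coding genes.

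Read by gene, 25 of the 38 had a JunB peak within 50 kb in at least 1 library and 13 had none (34.2%, against 35.4% of all protein-coding genes). Among the 25, Wnt1, Wnt3a, Wnt9a, Wnt10b, Fzd1, Fzd10 and Tcf7 had JunB peaks in young replicate 1 alone. The share of Wnt genes without a peak thus rests in part on that library. Distal peaks were seen with aged cells but in no young library for 8 genes (21.1%), against 19.3% of all protein-coding genes. In a young library but not with aged cells they were seen for 9 genes (23.7%), against 6.97%, and 8 of the 9 had them in young replicate 1 alone, against 5.09% of all protein-coding genes. These genes do not each stand on a separate peak. Wnt1 and Wnt10b shared 1 peak of young replicate 1, Wnt3a and Wnt9a another, and Wnt6 and Wnt10a shared 1 aged peak. Without young replicate 1 the aged-only count was 8 (against 26.9%) and the young-only count was 1, that of Wnt4 (2.63%, against 1.87%). In all 4 JunB libraries a JunB peak was found near 4 genes (10.5%), namely Wnt7b, Wnt11, Lrp6 and Tcf7l2, against 19.1% of all protein-coding genes. Aged fold enrichments were 5.11 to 10.3 at the 5 loci found in all 4 libraries and at most 5.49 at the 21 loci found in the aged library alone. The weakest single-library peaks of young replicate 1, at Wnt4, at Wnt1 and Wnt10b, at Wnt3a and Wnt9a and in an intron of Lrp5, all had a fold enrichment of 3.32 and a −log10 q of 1, and the Lrp5 one was wholly repeat-masked.

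**Figure D4:**
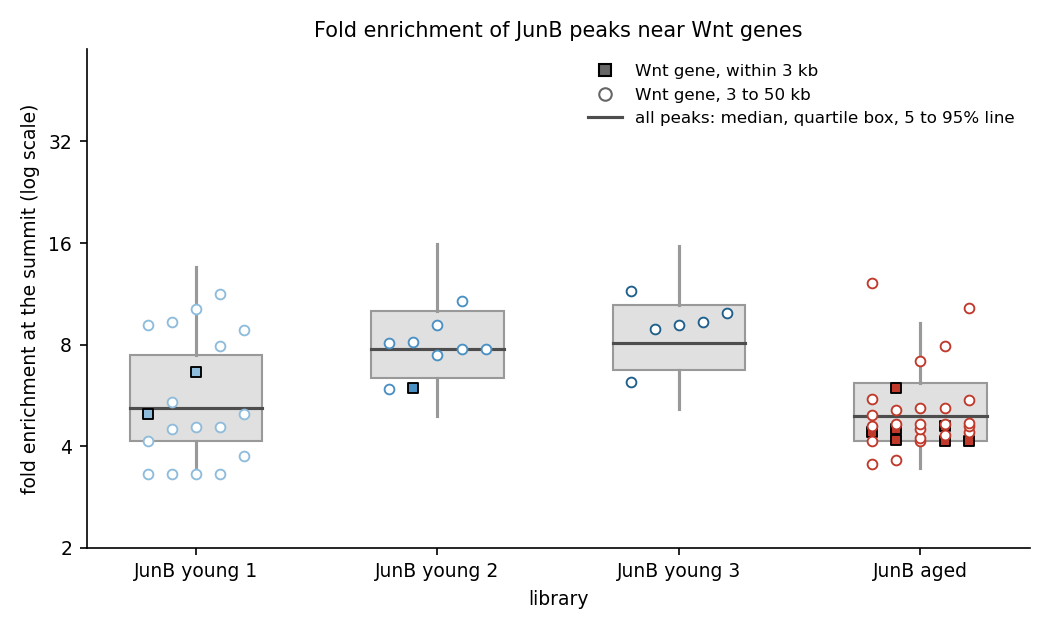
Fold enrichment at the summit (log scale) of each JunB peak linked to a Wnt gene, by library, with filled squares for promoter peaks and open circles for distal peaks. Grey boxes span the quartiles of all peaks of the library, the dark line is their median and the thin line runs from the 5th to the 95th percentile. Of the 7 aged promoter peaks, 1 lay above the library median of 4.93, and of the 6 peaks of young replicate 3, 5 lay above its median of 8.11.

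AP-1 sequences were found under few of the Wnt gene peaks. Within 150 bp of the summit, on either strand, TGACTCA or TGAGTCA was present in 3 of 19, 0 of 9 and 1 of 6 peaks of the young libraries and in 3 of 31 aged peaks (9.68%), against 22.6%, 28.2%, 31.6% and 15.9% of all peaks of those libraries. Within 50 bp it was present in 1 of 19, 0 of 9, 1 of 6 and 2 of 31, against 5.24%, 5.87%, 7.21% and 3.59%. TGACGTCA, which holds neither AP-1 sequence within it, was present in 1 peak of each JunB library, the upstream Wnt7b peak, against 1.19%, 1.31%, 1.08% and 1.27% of all peaks. CTTTGAT or ATCAAAG, the letters read by TCF/LEF factors, was present in 2 of 19 peaks of young replicate 1, those of Wnt4 and Fzd10, and in none of the other JunB libraries, against 3.25 to 4.18% of all peaks. RefSeq promoter sequences were matched for 27 of the 38 genes, under the 80% needed, and a check of promoter sequence over the list is void for that reason.

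The 67 other genes of the pathway gave the setting. They were fixed as a list of secretion genes, secreted or membrane-bound agonists and antagonists, non-canonical components, cytoplasmic and nuclear components and targets. JunB promoter peaks were at 8, 5 and 4 of them in the young libraries and at 14 (20.9%) in aged MuSCs, and H3K27ac promoter peaks at 33 (49.3%). Distal JunB peaks were at 27, 13 and 13 in the young libraries and at 39 (58.2%) in aged MuSCs. JunB promoter peaks in all 4 libraries were found for 3 of the 67 (4.48%), close to the 4.40% of all protein-coding genes, namely Gsk3a, Gsk3b and Csnk1a1, the kinases that phosphorylate β-catenin in the destruction complex. Their aged fold enrichments were 11.9, 10.5 and 5.99 and their aged −log10 p values 40, 32.3 and 10.8. All 3 are cytoplasmic components, of which 4, 3 and 3 of 17 had a JunB promoter peak in the young libraries and 4 of 17 in aged MuSCs (23.5%, against 23.9% of all protein-coding genes). Of the 17 antagonists 0, 1 and 0 had one in the young libraries and 1 in aged MuSCs, the Kremen1 promoter in both cases, and of the 4 target genes Myc and Ccn4 had one in young replicate 1 and in aged MuSCs, and Ccn4 also in young replicate 3, at a fold enrichment of 6.27 and a −log10 p of 11.7.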

How the data were processed

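Reads had been trimmed, filtered and mapped to mm10 (Bowtie2), redundant reads removed, and peaks called separately per library (MACS2) by the authors; versions and a control library are not given in the sources used here. The deposited lists give peak coordinates, fold enrichment (a ratio of summit pileup to local background), −log10 p and −log10 q, each relative to its own library. Peaks were linked by edge distance to every TSS of GENCODE M21 protein-coding genes, so a peak could serve several genes. Overlap needed 1 bp, and intervals are exact Clopper-Pearson 95%. Peaks outside the assembled chromosomes were left out of sequence counts. Python 3.11.15, numpy 2.4.6, pandas 2.3.3, scipy 1.17.1, pysam 0.24.0 and matplotlib 3.10.9 were used. On simulated data 500 of 500 planted links were recovered, and overlap was checked against bedtools 2.31.1. The members and lists were chosen with earlier results of these data known. By rule, all 38 genes were accounted for by class, peak values were given for genes with a JunB promoter peak and for the 10 genes whose distal JunB peaks were in the most libraries (ties by aged −log10 p), at most 8 sequences were shown in that order, and pathway genes were named where all 4 JunB libraries held a promoter peak. Other values named, such as those of Axin1, Kremen1, Myc and Ccn4, and the tandem repeat and masking counts, were chosen after the data were seen. Alternatives covered the TSS set, distances, thresholds, peak numbers, links and each young replicate.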

Additional observations from a re-analysis of the deposited data

How the results depend on the processing

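Of 61 counts under other settings, 41 stayed within 1.5 times the reported count of Wnt genes. That tally compares counts of Wnt genes only. The order of their share and that of all genes could turn while the count held. The promoter counts reported were 6 for aged JunB, a mean of 1 for young JunB and 14 for H3K27ac. With the 3863 strongest peaks of each JunB list they were 0 (aged) and 0.333 (young), and with the 2000 strongest peaks of each list 0 (aged), 0.0 (young) and 0 (H3K27ac). Leaving out each young replicate gave 0.500 to 1.5, the lowest without replicate 1. The distal counts reported were 14 for aged JunB, a mean of 8.67 for young JunB and 31 for H3K27ac. With the 3863 strongest JunB peaks they were 4 (aged, 10.5% against 21.9% of all genes) and 5 (young, 13.2% against 19.3%), and with the 2000 strongest 3, 4 and 1 (aged, young, H3K27ac). With a limit of 20 kb in place of 50 kb they were 8, 4.33 and 19, and with 100 kb 30 (aged) and 17.3 (young). The 20 kb shares were 21.1%, 11.4% and 50% against 26.5%, 11.8% and 47.8% of all protein-coding genes, and at 100 kb 78.9% and 45.6% against 69.9% and 41.7%, so that the aged and young shares stood above those of all genes there and below them at 50 kb. With JunB peaks on H3K27ac only they were 8 (aged) and 3 (young), and with each peak given to its nearest gene the aged count was 9, or 23.7% against 16.7% of all genes. Leaving out each young replicate gave 5.50 to 10.5, the lowest without replicate 1. In the restricted settings fewer peaks were counted by construction. No paired analysis was possible because the labels pair no young library with the 1 aged library, and no test was made. Results are limited by single aged and H3K27ac libraries, by thresholds that differ between the JunB lists and by peak lists without read counts.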
